A study of Mus musculus with 13 samples.

Results

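Apolipoproteins, cholesterol exporters, lipoprotein receptors and lipases, and the nuclear receptors that regulate them, were followed as a group of 10 listed genes among the 56980 genes counted. The genes were taken by symbol: the apolipoproteins Apoe, Clu and Apod, the exporters Abca1 and Abcg1, the receptor Lrp1, the lipase Lpl, the liver X receptors Nr1h2 and Nr1h3, and the ubiquitin ligase Mylip. The libraries are bulk RNA sequencing of 13 hippocampi, taken from males aged 9 months. Every mouse was App NL-G-F, with familial Alzheimer mutations placed in its own App gene so that plaques form, and homozygous for floxed Lpcat3 (Lpcat3 f/f). The 7 knockouts also carried vav1-CRE, a Cre recombinase driven by a promoter of the blood lineage that also acts in microglia, while the 6 controls, which the labels call WT, had no Cre. The labels give tamoxifen by gavage (20 mg/ml, 0.2 mg per g body weight) for controls and knockouts alike, without saying whether deletion depended on it. Whether every library came from its own mouse is not stated, and the p-values below reflect only how these libraries scatter.

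Lipids move between brain cells on small particles built around apolipoproteins. ABC transporters load cholesterol and phospholipid onto these particles, endocytic receptors take them up, and lipases release their fatty acids. Liver X receptors sense oxysterols and switch on genes for export, Apoe, Abca1, Abcg1 and Mylip among them, and also Lpcat3, whose enzyme builds polyunsaturated phospholipids. In brain, Apoe is made chiefly by astrocytes and, around plaques, also by microglia.

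The promoters of Apoe and Abca1 are shown because both genes are known liver X receptor targets and stand at the centre of the values that follow, one as the carrier and one as the exporter that loads it. The sequences are the 250 bases before the start site from RefSeq on GRCm38.p6, both on the minus strand. The Abca1 stretch is chr4:53159896-53160145 and the Apoe stretch, before the outermost of 3 listed starts, is chr7:19699189-19699438. Capitals mark in Abca1 the match to GGTNA and GGTCA with any 5 bases between them, a relaxed form of the paired element that liver X receptors bind, and in Apoe the half-site GGTCA.
Abca1: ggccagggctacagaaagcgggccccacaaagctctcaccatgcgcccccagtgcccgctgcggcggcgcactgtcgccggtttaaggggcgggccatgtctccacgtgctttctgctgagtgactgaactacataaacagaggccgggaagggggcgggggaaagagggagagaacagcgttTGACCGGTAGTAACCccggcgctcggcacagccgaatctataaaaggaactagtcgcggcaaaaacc
Apoe: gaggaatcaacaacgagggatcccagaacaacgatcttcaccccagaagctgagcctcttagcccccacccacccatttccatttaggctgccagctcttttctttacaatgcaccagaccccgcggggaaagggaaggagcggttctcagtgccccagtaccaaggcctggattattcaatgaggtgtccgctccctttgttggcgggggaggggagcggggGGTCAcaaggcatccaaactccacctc

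The Abca1 match lies on the opposite strand and ends 53 bases before the start site; read on that strand it is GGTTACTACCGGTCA. Over windows of 300 bases (250 before and 50 after the start), the paired motif was found on either strand in 68 of 32851 RefSeq promoters (0.207%), and in 1 of the 10 windows that the table holds for 7 of the 10 genes (all but Clu, Abcg1 and Lpl). The half-site, which the paired motif contains, was in 40.5% of all windows and in 2 of these 10, the windows shown above. Both motifs were chosen after the sequences had been seen, and a match of letters is not evidence of binding.

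Libraries held 12159941 to 18322559 counted reads, with 40 to 20286 reads per library for the 10 genes, all of which passed the filter on low counts. Lpcat3, the targeted gene, was between 24.7 and 30.3 CPM (the usual depth-scaled read count, here with TMM factors) in controls and between 17.3 and 24.3 CPM in knockouts, without overlap. Of the hippocampal neuron markers, 14 of 14 were above the filter, with a sum of 4425 to 5370 CPM over all libraries. Striatum (9 of 9) and choroid plexus (12 of 12) markers were above it too, so passing the filter does not identify the region. The libraries also differed in tissue carried along: the sum of 12 choroid plexus markers ran from 413 to 5927 CPM in controls and from 358 to 10028.1 CPM in knockouts, and that of 10 septum markers from 81.2 to 151 and from 79.9 to 87.4 CPM. The sample numbers form 3 runs, 3283 to 3288 (5 knockouts, 1 control), 3296 to 3300 (1 knockout, 3 controls) and 4301 to 4307 (1 knockout, 2 controls). The labels do not say what a run is, so for the 10 genes differences within runs are given beside the pooled ones.

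Apoe, the main lipid carrier of brain lipoproteins, averaged lower in the knockout than in control, with 6 of 7 knockouts below every control. Knockout replicate 4 was among them only just, at 1067.98 CPM against 1068.46 CPM in control replicate 1. For the other 9 genes at most 4 of 7 knockouts lay outside the control range on one side. How often this occurs over all genes was not counted. None of the 10 genes passed an adjusted p of 0.05 in edgeR's quasi-likelihood test, where 4 of 17549 genes tested (0.0228%) did. At an unadjusted p under 0.05, Apoe was lower and Nr1h3 higher, 2 of 10 genes, against 7.25% of all genes lower and 5.23% higher. Of the 10 genes, 8 had negative log2 fold changes, as did 51.3% of all genes, and the median over the 10 was -0.08 against -0.0041 over all genes. For none of the 10 genes did the groups separate fully; all knockouts lay below all controls for 0.274% of genes tested. In DESeq2, Apoe alone of the 10 passed an adjusted p of 0.05, where 0.737% of genes tested were called lower.

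**Figure D1:**
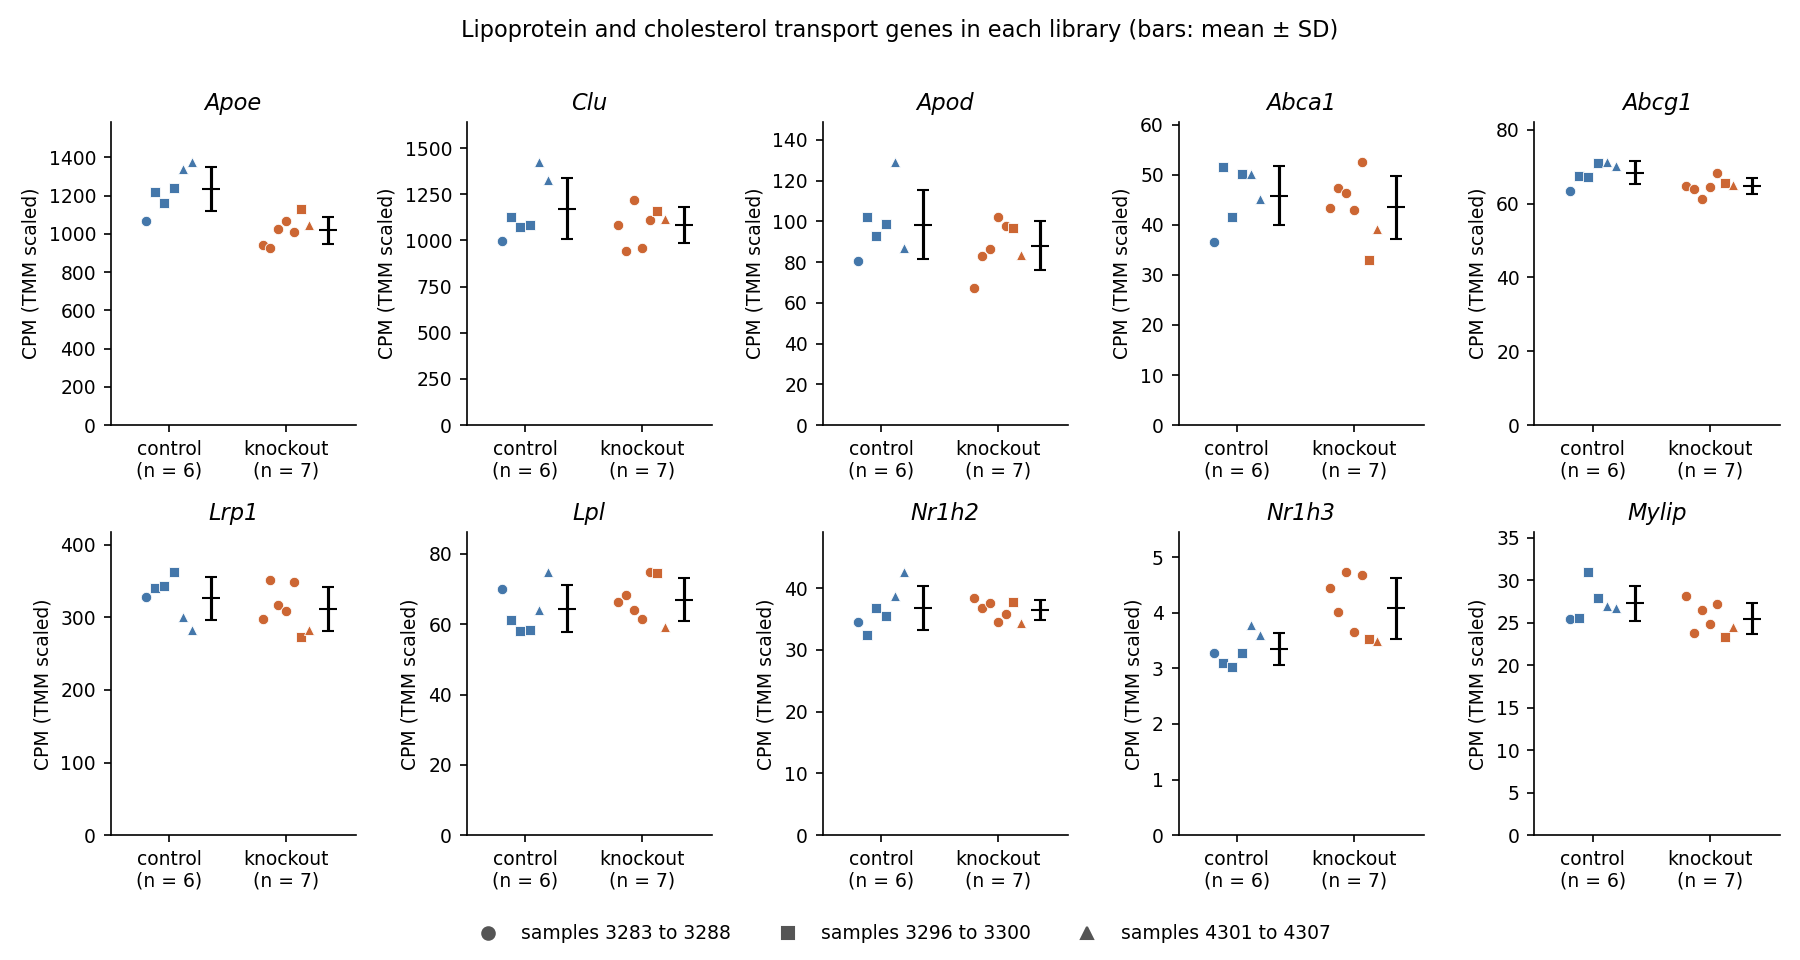
CPM of each of the 10 genes in every library (points; shape gives the run of sample numbers) with mean ± SD at the right of each group (6 controls, 7 knockouts). For Apoe, 5 of 6 controls lie above every knockout, while for Abca1, Lrp1 and Lpl the groups overlap over most of their range and for Nr1h2 the knockouts lie inside the control range.

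In controls Apoe (ENSMUSG00000002985, chromosome 7) had a lowest value of 1068 CPM, a median of 1229 and a highest of 1377, and in knockouts 926, 1024 and 1129 CPM. Of the 7 knockouts, 6 lay below every control and all 7 below the control median; the only knockout within the control range was replicate 6, and control replicate 1 was the only control within the knockout range. Means were 1235 ± 114 CPM (SD, n = 6) and 1020.4 ± 70.7 CPM (SD, n = 7), so the knockout level was 82.7% of control. The log2 fold change was -0.27 (SE 0.060, 95% interval -0.40 to -0.15), with an unadjusted p of 2.4e-04 and an adjusted p of 0.097 in edgeR, place 41 of 17549 genes. An exact two-sided permutation over 1716 relabellings gave p = 0.0023 for Apoe, a gene that was listed with this difference already known.

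Apoe was lower in the knockout in each of the 3 runs, by differences of -0.11, -0.10 and -0.38 in mean log2 CPM. Shuffling the group labels inside each run, with 72 possible arrangements, gave Apoe a permutation p of 0.014, the smallest possible there. That test used the pooled difference without removing run means. Most knockouts were in the run 3283 to 3288, whose only control had the lowest Apoe of the controls. The test therefore does not weigh both directions alike and is not two-sided. Its minimum also rested on control replicate 1 (1068.46 CPM) lying just above knockout replicate 4 (1067.98 CPM). With the run as a term of the edgeR fit the log2 fold change of Apoe was -0.18 (unadjusted p = 0.0073, adjusted p = 0.50). In that fit Lpcat3, the deleted gene, had an adjusted p of 0.49. Without samples 4301 to 4307, whose 2 controls had the highest Apoe levels at 1341 and 1377 CPM, the change of Apoe was -0.20 (adjusted p = 0.20). Without control replicate 1, the lowest control, it was -0.31 and passed (adjusted p = 0.028 in edgeR).

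Clu, which encodes clusterin, a secreted chaperone that is also carried on lipoprotein particles and is made largely by astrocytes, was nearly as abundant. Its lowest, median and highest values were 998, 1104 and 1426 CPM in controls and 945, 1109 and 1219 CPM in knockouts. The medians lay close together, and the difference in means, 1173 ± 167 (SD, n = 6) and 1084 ± 99.7 CPM (SD, n = 7), rested on the controls of samples 4301 to 4307, both above every knockout. The log2 fold change was -0.11 (95% interval -0.28 to 0.05, adjusted p = 0.60 in edgeR), with within-run differences of 0.09, 0.08 and -0.30 in mean log2 CPM. Without samples 4301 to 4307 the sign turned, to 0.02.

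Apod encodes a lipocalin, apolipoprotein D, which binds arachidonic acid and is made in brain by oligodendrocyte lineage cells and fibroblasts. It ran from 80.4 to 129 CPM in controls with a median of 95.7, and from 67.1 to 102 CPM in knockouts with a median of 86.2. The groups overlapped broadly, with 4 of 7 knockouts below the control median. The log2 fold change was -0.16 (95% interval -0.37 to 0.05, adjusted p = 0.54 in edgeR), with within-run differences of 0.10, -0.02 and -0.35 in mean log2 CPM. For Apod it was -0.06 without control replicate 5, the highest library, -0.11 without knockout replicate 1, the lowest, and -0.07 either with the run as a term or without samples 4301 to 4307. Marker sums of the cells that make Apod also overlapped between groups: 6363 to 8077 CPM in controls and 6069 to 8003 CPM in knockouts for 12 oligodendrocyte genes, and 103 to 294 and 120.2 to 305 CPM for 10 meningeal and perivascular fibroblast genes. Of the oligodendrocyte markers 12 of 12 had negative log2 fold changes (median -0.10) and 2 an unadjusted p under 0.05, while of the fibroblast markers 1 of 10 was negative (median 0.09). Their part in the Apod values was not tested.

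Per kilobase of exon, Apoe was the most abundant of the 10 in controls at 577 ± 53.3 CPM per kb, followed by Clu at 341 ± 48.5, Apod at 38.2 ± 6.61 and Lrp1 at 18.4 ± 1.68 CPM per kb (SD, n = 6). Nr1h2 at 10.96 ± 1.07, Abcg1 at 9.37 ± 0.42 and Mylip at 8.43 ± 0.63 CPM per kb came next, and neighbours among these 3 overlapped over control libraries. Lpl at 6.15 ± 0.64, Abca1 at 4.42 ± 0.57 and Nr1h3 at 1.33 ± 0.12 CPM per kb closed the order, each below the range of the gene before it. The exporters and receptors thus lay far below Apoe.

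Abca1 and Abcg1 encode the transporters that load lipid onto apolipoprotein particles, Abca1 onto lipid-poor apolipoproteins and Abcg1 onto formed particles. Abca1 had lowest, median and highest values of 36.5, 47.6 and 51.5 CPM in controls and 33.0, 43.3 and 52.6 CPM in knockouts, so the knockouts spanned the whole control range. Its log2 fold change was -0.07 (95% interval -0.28 to 0.13, adjusted p = 0.80 in edgeR). The within-run differences in mean log2 CPM were 0.34, -0.53 and -0.28, and the lowest knockout (replicate 6) and the lowest control (replicate 1) came from different runs.

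Abcg1 was the least variable of the 10 genes, with a coefficient of variation of 4.48% in controls and 3.29% in knockouts. It ran from 63.3 to 71.3 CPM in controls with a median of 68.8, and from 61.2 to 68.4 CPM in knockouts with a median of 64.7. Every knockout (7 of 7) was under the median of the controls, and 3 of 6 controls were above every knockout. The log2 fold change was -0.08 (95% interval -0.17 to 0.01, unadjusted p = 0.081, adjusted p = 0.47 in edgeR). Within runs the differences for Abcg1 were 0.03, -0.07 and -0.12 in mean log2 CPM. The lowest control, replicate 1 at 63.3 CPM, was the only control of the run 3283 to 3288, where the sign turned.

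Of the liver X receptors, Nr1h3 had a positive log2 fold change and Nr1h2 one near 0. Nr1h3, which encodes liver X receptor alpha, the form enriched in macrophages and liver, had lowest, median and highest values of 3.02, 3.28 and 3.77 CPM in controls and 3.48, 4.02 and 4.73 CPM in knockouts. All 7 knockouts lay above the control median and 4 above every control, and those 4 were all in the run 3283 to 3288. Only 40 to 77 reads per library were counted for Nr1h3. The log2 fold change was 0.28 (SE 0.12, 95% interval 0.03 to 0.54), with an unadjusted p of 0.033 and an adjusted p of 0.35 in edgeR. Within runs the differences were 0.37, 0.16 and -0.08 in mean log2 CPM, so the sign turned in samples 4301 to 4307. With the run as a term the log2 fold change of Nr1h3 was 0.18 (adjusted p = 0.77), and with a score of 16 astrocyte markers as a term 0.05 (adjusted p = 0.98).

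Nr1h2, which encodes the widely expressed liver X receptor beta, ran from 32.4 to 42.6 CPM in controls with a median of 36.2 and from 34.3 to 38.4 CPM in knockouts with a median of 36.8. The knockouts lay inside the control range, and the log2 fold change was -0.01 (95% interval -0.14 to 0.12, adjusted p = 0.97 in edgeR). Within runs the differences for Nr1h2 were 0.09, 0.12 and -0.24 in mean log2 CPM. The log2 ratio of Nr1h2 to Nr1h3 within a library, computed on CPM plus a pseudocount of 1, averaged 3.12 ± 0.097 over the controls (SD, n = 6) and 2.89 ± 0.14 over the knockouts (SD, n = 7). Of 7 knockouts, 6 had a ratio below every control. The difference of -0.23 gave p = 0.0058 by exact two-sided permutation, or 0.035 when adjusted for 6 ratios. Its size depends on the pseudocount, since Nr1h3 is at a few CPM: it was -0.29 with none (adjusted exact p = 0.031) and -0.13 with 5 CPM, where it did not pass (adjusted exact p = 0.0997). It was negative in all 3 runs (-0.22, -0.02 and -0.17), but with relabelling only within runs the adjusted exact p was 0.125. It also rose above 0.05, to at most 0.098, on leaving out any library other than control replicate 5 and knockout replicates 4 and 6, with differences between -0.26 and -0.20 over the 13 omissions.

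The other 5 ratios asked whether Apoe differed from its neighbours in the pathway, and whether the 2 exporters differed from each other. The log2 ratio of Apoe to Clu averaged 0.08 ± 0.096 over the controls (SD, n = 6) and -0.09 ± 0.13 over the knockouts (SD, n = 7), and 4 of 7 knockouts lay below every control. The difference of -0.17 had an exact two-sided p of 0.033, which became 0.0997 over the 6 ratios and so did not pass. Within runs the Apoe to Clu ratio differed by -0.19, -0.18 and -0.07. The ratios of Apoe to Apod (-0.12), to Lrp1 (-0.21) and to Abca1 (-0.20) had adjusted exact permutation p-values between 0.23 and 0.30, and those to Lrp1 and Abca1 were positive in samples 3296 to 3300 (0.26 and 0.42). Without control replicate 6 the Apoe to Apod ratio differed by -0.05 and the Apoe to Lrp1 ratio by -0.13, and the latter by -0.08 without samples 4301 to 4307. Abca1 to Abcg1 differed by 0.0018 (adjusted exact p = 0.99), with within-run differences of 0.31, -0.45 and -0.16. It is therefore not shown that Apoe changed more than these partners.

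**Figure D2:**
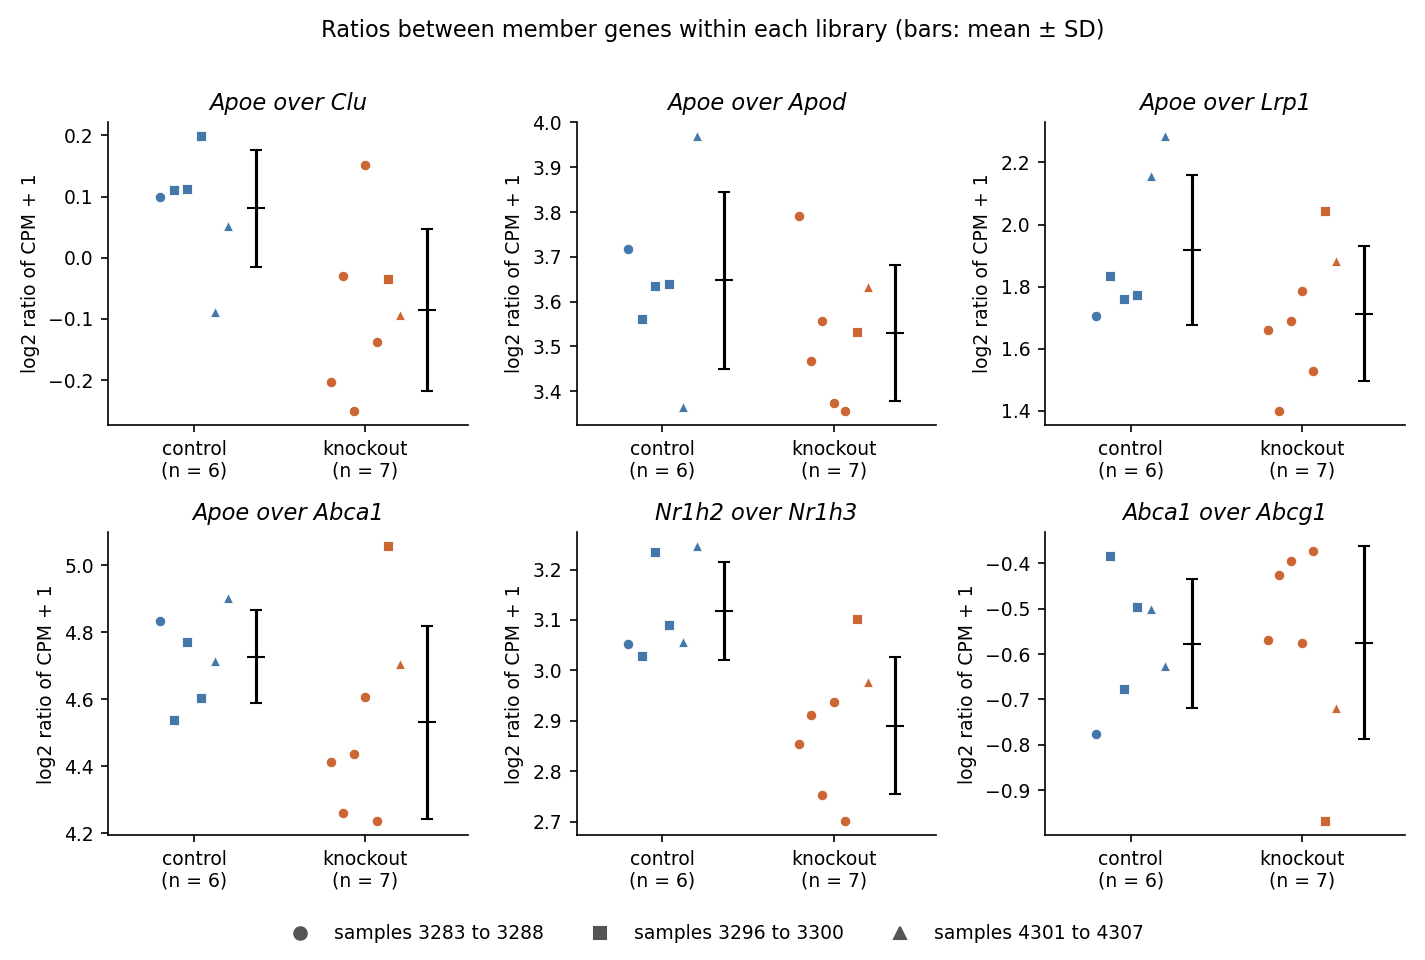
Log2 ratios of CPM + 1 between pairs of genes in each library, with mean ± SD for 6 controls and 7 knockouts. The Nr1h2 to Nr1h3 ratio is below every control in 6 of 7 knockouts, and the Apoe to Clu ratio in 4 of 7.

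Lrp1, a large endocytic receptor for Apoe particles and for amyloid beta, had lowest, median and highest values of 282, 334 and 362 CPM in controls and 273, 309 and 351 CPM in knockouts. The groups overlapped over nearly the whole range, and the log2 fold change was -0.07 (95% interval -0.21 to 0.07, adjusted p = 0.73 in edgeR). Mean log2 CPM of Lrp1 was lower within all 3 runs (-0.01, -0.35 and -0.04), and a run term in the edgeR fit gave a log2 fold change of -0.13 (adjusted p = 0.61).

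Lpl, the lipase that frees fatty acids from lipoprotein triglycerides and a marker of plaque-associated microglia, averaged 64.4 ± 6.75 CPM over the controls (SD, n = 6) and 67.0 ± 6.08 CPM over the knockouts (SD, n = 7). The ranges were 58.1 to 74.8 and 59.3 to 74.9 CPM, so they coincided. Its log2 fold change was 0.06 (95% interval -0.09 to 0.20, adjusted p = 0.79 in edgeR), and within runs it was -0.07, 0.33 and -0.22. Neurons of the hippocampus also express Lpl, and their share of the signal cannot be told apart in bulk RNA.

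Mylip encodes the ligase, also called Idol, that marks lipoprotein receptors for degradation. It ran from 25.4 to 31.0 CPM in controls with a median of 26.8 and from 23.3 to 28.1 CPM in knockouts with a median of 24.8. Of 7 knockouts, 4 lay below every control and the other three within the control range. The log2 fold change was -0.10 (95% interval -0.24 to 0.04, adjusted p = 0.57 in edgeR), with differences of 0.03, -0.27 and -0.13 within runs.

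**Figure D3:**
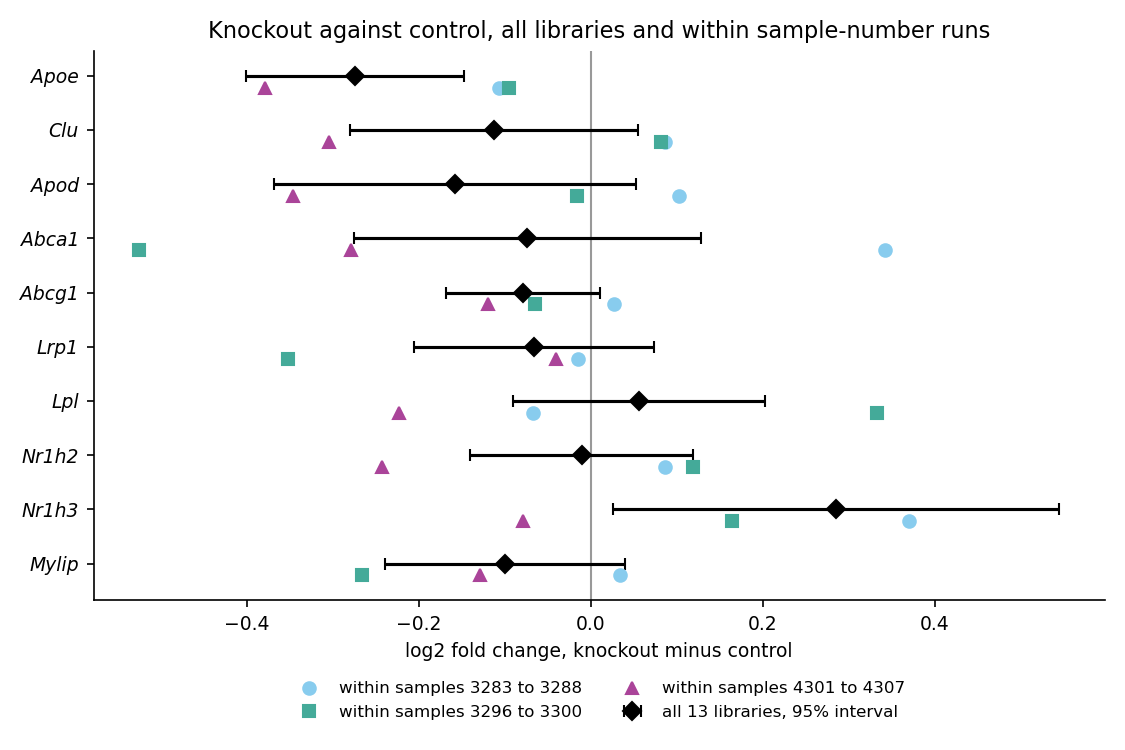
Log2 fold change, knockout minus control, of each of the 10 genes in edgeR over all 13 libraries (diamonds, with 95% intervals) and the difference in mean log2 CPM within each run of sample numbers (coloured symbols, with as few as 1 library per group). The intervals of Apoe (-0.40 to -0.15) and Nr1h3 (0.03 to 0.54) exclude 0; only Apoe and Lrp1 are negative within all 3 runs.

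Markers of cells that make Apoe were compared with it; over all genes tested, 51.3% had negative log2 fold changes and 7.25% were lower at an unadjusted p under 0.05. Of 24 markers of plaque-associated microglia (Apoe and Lpl left out), 22 had negative log2 fold changes and 12 an unadjusted p under 0.05 in edgeR, all lower. Their sum was 3778 to 4620 CPM in controls and 3636 to 3920 CPM in knockouts. That sum rests mostly on the most abundant of the 24, while the counts weigh each gene alike. Of 16 astrocyte markers (Clu and Apoe left out) 13 were negative and 4 had an unadjusted p under 0.05, with sums of 6034 to 6366 and 5661 to 6202 CPM. Of 14 homeostatic microglial markers 9 were negative and 1 had an unadjusted p under 0.05, with sums of 1139 to 1312 and 1093 to 1259 CPM. Some lists of cells not known as main sources of Apoe were one-sided too, with 12 of 12 oligodendrocyte, 7 of 8 oligodendrocyte precursor, 9 of 9 striatum and 6 of 7 septum markers negative. Other lists leaned the other way, with 4 of 14 hippocampal neuron, 4 of 12 choroid plexus and 1 of 10 meningeal and perivascular fibroblast markers negative. Mural (3 of 7), endothelial (7 of 11) and border macrophage (2 of 4) markers were mixed in sign. Of the hippocampal neuron markers, 5 were higher and 1 lower at an unadjusted p under 0.05 in edgeR. No marker of these lists was at 0 in all libraries, and the part of these cells in the Apoe difference was not tested. With the plaque-associated score as a term the log2 fold change of Apoe was -0.12 (adjusted p = 0.88 in edgeR), and with the astrocyte score -0.21 (adjusted p = 0.80). Lrp1, Nr1h3 and Mylip had the same adjusted p of 0.88 in the first of these fits. Both scores averaged lower in knockouts (4.93 in controls and 4.72 in knockouts, and 7.92 and 7.86). The terms therefore take up part of the group difference and do not test that part. Fewer cells of a type and less RNA per cell cannot be told apart in bulk RNA.

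Over the 13 libraries Apoe was compared with 3 scores, each the mean log2 CPM of a marker list. With the plaque-associated score, Pearson's r was 0.87 (permutation p = 0.00012, adjusted over the 3 relations 0.00036) and Spearman's rho 0.79 (permutation p = 0.0023, adjusted 0.0052). Without the 2 libraries farthest from the median score r was 0.74 (permutation p = 0.0087). Within controls r was 0.80 (n = 6, exact p = 0.049), within knockouts 0.63 (n = 7, exact p = 0.13) and within the run 3283 to 3288 0.73 (n = 6, exact p = 0.11). The other runs hold too few libraries. The relation thus did not pass 0.05 within knockouts or within that run. The pooled r takes in the difference between groups, since this score averaged 4.93 in controls and 4.72 in knockouts and Apoe was lower in knockouts too.

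With the astrocyte score the pooled r was 0.71 (permutation p = 0.0070, adjusted 0.011) and rho 0.76 (permutation p = 0.0035, adjusted 0.0052), with r = 0.72 (permutation p = 0.014) without the 2 farthest libraries. It did not hold within groups, with r of 0.16 in controls (n = 6, exact p = 0.76) and 0.45 in knockouts (n = 7, exact p = 0.31), nor within the run 3283 to 3288 (r = 0.37, exact p = 0.45). With the homeostatic microglial score the pooled r was 0.54 (permutation p = 0.059, adjusted 0.059) and rho 0.53 (permutation p = 0.064, adjusted 0.064), and 0.58 (permutation p = 0.061) without the 2 farthest libraries. Within controls it was 0.99 (n = 6, exact p = 0.0014), within knockouts 0.36 (n = 7, exact p = 0.43) and within the run 3283 to 3288 -0.54 (n = 6, exact p = 0.27). The relation of Apoe to the homeostatic score thus differed in sign between these sets of libraries. Among the controls both values rose from run to run, so the relation there cannot be told apart from a run difference. Apoe was at 10.06, 10.18 to 10.28 and 10.39 to 10.43 log2 CPM in the 3 runs in order of sample number. The homeostatic score was at 5.74, 5.83 to 5.88 and 5.94 to 5.96.

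**Figure D4:**
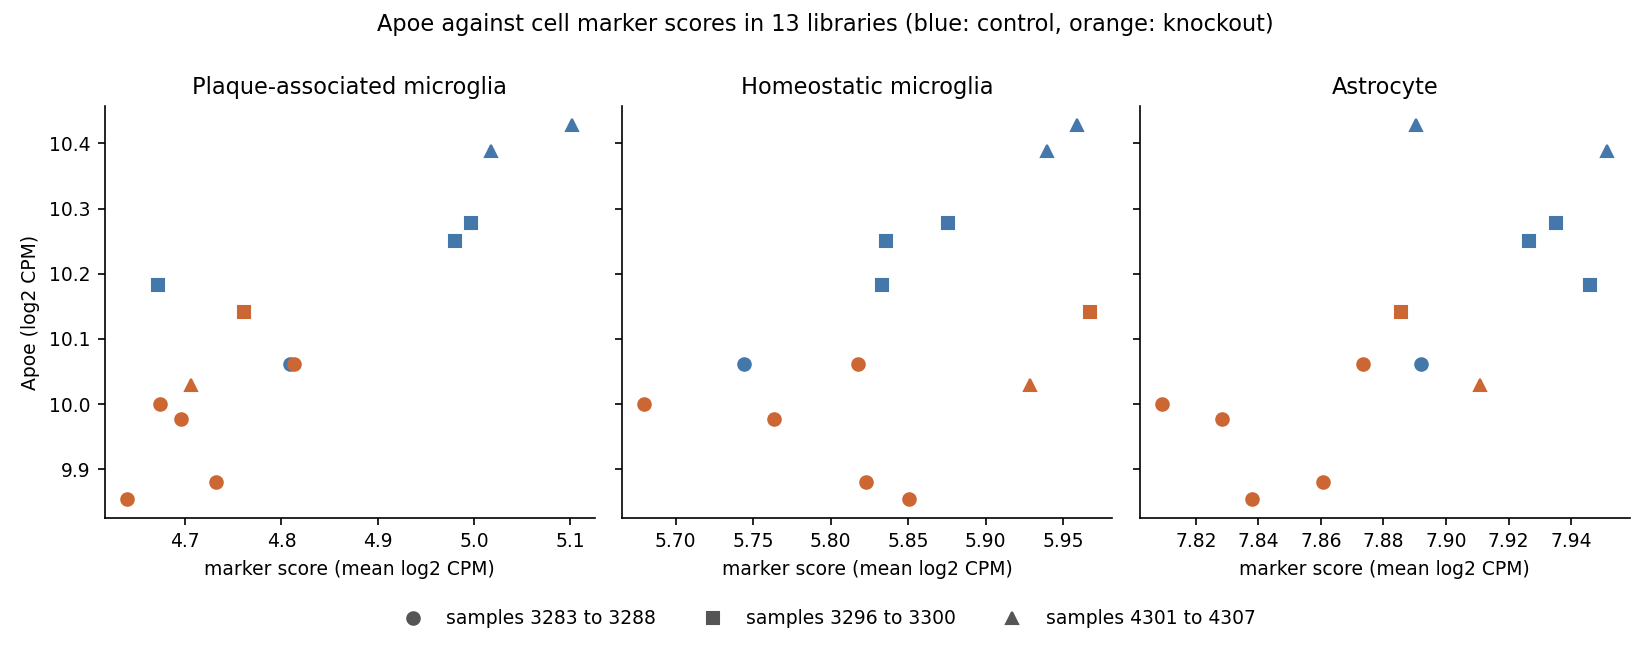
Apoe in log2 CPM against the mean log2 CPM of plaque-associated microglia, homeostatic microglia and astrocyte markers in 13 libraries (blue, control; orange, knockout; shape, run). With groups and runs pooled, Apoe and the plaque-associated score had r = 0.87. The 7 knockouts lie between 4.64 and 4.81 on that score, the 6 controls between 4.67 and 5.10.

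The genes most like Apoe were ranked by how far their order of the 13 libraries departed from that of Apoe, among 12185 genes with a mean of at least 5 CPM. The nearest was Cfl1, which encodes the actin-severing protein cofilin, with a mean difference of 0.62 places per library against a median of 4.31 over the genes compared. Gstm1 (a glutathione transferase), Ppa1 (a pyrophosphatase), Psma1 (a proteasome subunit) and Suclg1 (a subunit of succinyl-CoA ligase) followed at 0.77 places, and 1 more gene tied at that value and was left out by alphabetical order. Their log2 fold changes ran from -0.13 for Ppa1 to -0.29 for Gstm1, a direction that follows from choosing genes by the library order of Apoe. Their exon lengths were 1473 to 4617 bases and that of Apoe 2138, below the median of 4799 over the genes compared; with trends of exon length and GC content removed from each library, the log2 fold change of Apoe was -0.21 (adjusted p = 0.13). Within the group of 10, Abcg1 (2.31 places) and Apod (2.62) were nearest to Apoe in library order, and Lpl (5.08) and Nr1h3 (5.85) farthest.

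Other genes of the pathway were taken from 5 lists, with 0 past an adjusted p of 0.05 in edgeR. At an unadjusted p under 0.05, 5 genes were lower (Abca9, Abca2, Lmf1, Fabp5 and Lpcat3) and 3 higher (including Scarb1 and Scd1) of the 101 tested besides the 10, against 7.25% and 5.23% of all genes. DESeq2 called 1 of these at an adjusted p of 0.05, Lpcat3.

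Among 21 other apolipoproteins and plasma lipid proteins, 4 passed the count filter, 3 of them negative, and their median log2 fold change was -0.05. The neighbour of Apoe on chromosome 7, Apoc1, was below the filter at a mean of 0.54 CPM in controls and 0.33 CPM in knockouts. Pltp, the phospholipid transfer protein, was at 86.8 and 82.9 CPM (log2 fold change -0.07, adjusted p = 0.91 in edgeR).

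Of 26 other efflux and intracellular cholesterol genes, all above the filter, 13 were negative and 13 positive, with a median of -0.00073. Abca2, a lysosomal transporter abundant in oligodendrocytes, averaged 255 ± 17.5 CPM over the controls (SD, n = 6) and 237 ± 12.4 CPM over the knockouts (SD, n = 7), a log2 fold change of -0.10 (adjusted p = 0.40 in edgeR). Abca9, a transporter of the same subfamily, was at 17.1 ± 2.02 and 14.5 ± 2.02 CPM (-0.24, adjusted p = 0.33). Both ranges overlapped between groups. With the run term in edgeR the log2 fold change was -0.13 for Abca2 (unadjusted p = 0.032, adjusted p = 0.55). For Abca9 it was -0.30 (unadjusted p = 0.028, adjusted p = 0.54).

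Of 26 lipoprotein receptors and adaptors tested besides Lrp1, 19 were positive and 7 negative, with a median of 0.05. Vldlr and Lrp8, receptors that Mylip is known to act on and that were named after their values were seen, had log2 fold changes of 0.05 and 0.0061. Scarb1, a receptor for high-density lipoprotein, averaged 35.8 ± 1.64 CPM over the controls (SD, n = 6) and 39.3 ± 3.58 CPM over the knockouts (SD, n = 7). The edgeR log2 fold change of Scarb1 was 0.13 (adjusted p = 0.39), and 0.14 with the run as a term (unadjusted p = 0.097, adjusted p = 0.65).

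Among 23 other lipase and lipid droplet genes tested, 11 were negative and 12 positive, with a median of 0.03. Lmf1, a chaperone needed for the folding of Lpl, had a mean of 21.3 CPM over the controls, between 19.6 and 23.7, and of 18.7 CPM over the knockouts, between 17.6 and 19.7. Its log2 fold change was -0.19 (SE 0.065, unadjusted p = 0.0086, adjusted p = 0.24 in edgeR) and the same with the run term (-0.19, unadjusted p = 0.032, adjusted p = 0.55). Fabp5, a fatty acid binding protein, was at 47.5 ± 3.87 and 41.5 ± 5.63 CPM (-0.20, adjusted p = 0.33). With the run term in edgeR its log2 fold change was -0.17 (unadjusted p = 0.092, adjusted p = 0.65).

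Of 24 other genes of the liver X and retinoid X receptors, their cofactors and targets, 11 were negative and 13 positive, with a median of 0.02. Scd1, the stearoyl-CoA desaturase, averaged 112 ± 9.36 CPM over the controls (SD, n = 6) and 139 ± 30.3 CPM over the knockouts (SD, n = 7), where it ran from 97.8 to 182 CPM. Its log2 fold change of 0.30 (adjusted p = 0.27 in edgeR) became 0.05 with the run term. Srebf1, a transcription factor gene that liver X receptors induce, was at 72.2 and 72.0 CPM (-0.0031, adjusted p = 0.99). Lpcat3, itself a target and the deleted gene, was at -0.45 (adjusted p = 0.096).

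**Figure D5:**
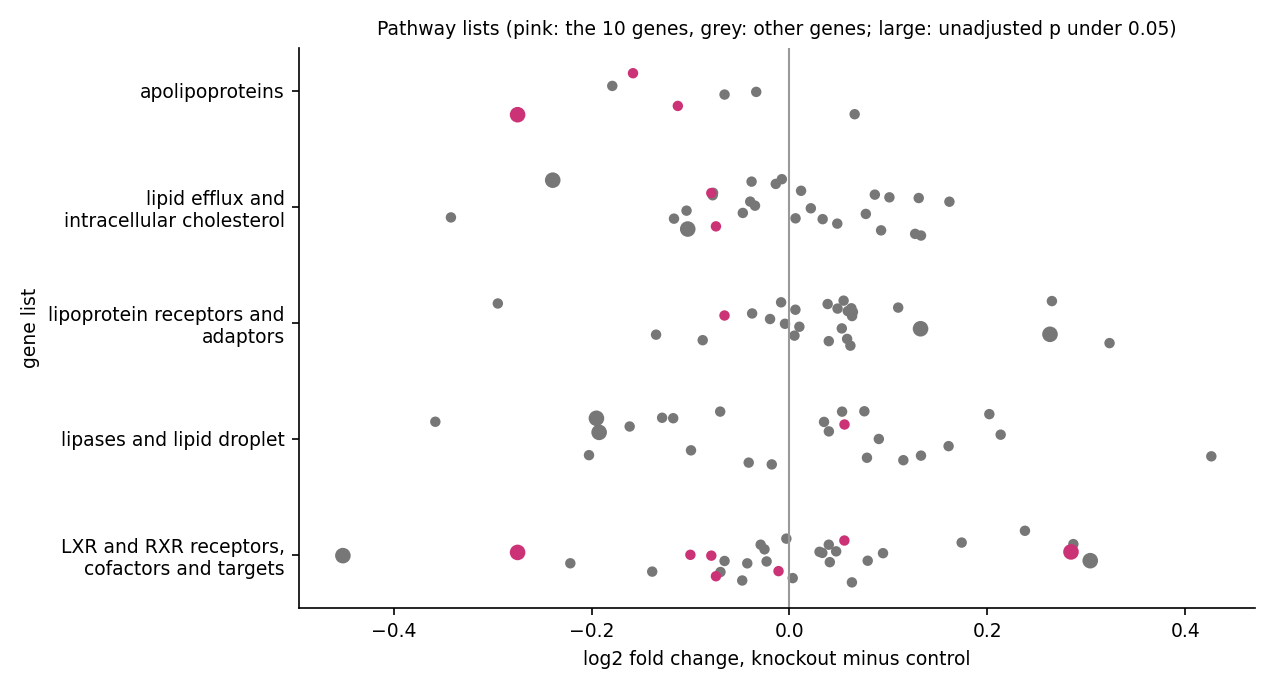
Log2 fold changes, knockout minus control, of the genes of 5 pathway lists that passed the count filter (points, spread vertically for legibility; pink, the 10 genes; grey, others; large points, unadjusted p under 0.05 in edgeR). Lpcat3 (-0.45) and Apoe (-0.27), which stands in 2 lists, are the large points farthest left, and Scd1 (0.30) and Nr1h3 (0.28) those farthest right.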

How the data were processed

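Bulk RNA sequencing of 13 hippocampi gave 1 deposited table of raw counts, whole numbers of reads for each gene, with 1 column per sample matched by the number in its title. The tools named in the submitters' processing notes are featureCounts 2.0.3, STAR 2.7.10a, DESeq2 1.36.0 and R 4.2.0, with GRCm39 as build; the annotation, strand setting and multimapper rule were not given in the sources used here. Symbols matched for 52073 of 56980 identifiers (GENCODE M21, which also gave exon lengths and chromosomes). All 36 within-group pairs differed by more than counting noise (chi-square 3.13 to 20.5 per gene). Knockout and control were tested by the quasi-likelihood method of edgeR 4.0.16 (R 4.3.3) after filterByExpr and TMM scaling, without covariates, with p adjusted by Benjamini-Hochberg over 17549 genes, with a threshold of 0.05. DESeq2 1.42.0, limma 3.58.1 (voom with quality weights), other scalings and filters, run and marker terms, removal of length and GC trends and omission of each library were alternatives. Ratios are of CPM plus a pseudocount of 1, tested by exact permutation. The members and lists were chosen with earlier results of these data known. Named genes were the 10, Lpcat3 and App, up to 3 per direction and list with the smallest unadjusted p under 0.05, and the 5 nearest to Apoe in library order; 1 gene that this rule names is not reported here. App was at 1263 and 1307 CPM (adjusted p = 0.65). In simulated counts for 17324 genes, 200 were changed. The test found 28% of those set to 1.25-fold, 76% of the 1.5-fold, 84% of the 2-fold and 96% of the 3-fold genes. Of its calls, 4.05% were false. The simulated counts held no runs, whereas the real libraries fall unevenly into runs, so these shares need not hold for them.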

Additional observations from a re-analysis of the deposited data

How the results depend on the processing

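The direction of Apoe held in all 13 alternative settings and all 13 omissions of 1 library (log2 fold change -0.31 to -0.23 over the omissions, adjusted p 0.028 to 0.25). It passed in DESeq2 (-0.26, adjusted p = 0.0054), without a count filter (-0.27, 0.037) and with the choroid plexus score as a term (-0.27, 0.025), so that 1 of the 10 genes was called there against 0 in the reported fit, and 0 to 1 over the omissions. Genes of the 10 with an unadjusted p under 0.05 numbered 2 as reported, 1 in DESeq2, without a filter, with the run term and with the astrocyte term, 0 with the plaque-associated term, and 1 to 3 over the omissions. DESeq2 called 1 other pathway gene, and without samples 4301 to 4307 the pathway genes higher at an unadjusted p under 0.05 numbered 7 instead of 3. Signs turned for Clu without samples 4301 to 4307 (0.0152) and with the plaque-associated term (0.0416), for Abca1 (0.0188) with that term, and for Apod (0.0068) and Lpl (-0.0943) with the astrocyte term. They turned for Nr1h2 in DESeq2 (0.00036), voom (0.0023), with the run term (0.00062), without samples 4301 to 4307 (0.0846), with the plaque-associated term (0.0444) and without length and GC trends (0.0111), and over the omissions (-0.0386 to 0.0434). The Apoe to Clu ratio differed by -0.21 to -0.14 over the omissions, passing without control replicate 5 or knockout replicate 4. The Abca1 to Abcg1 ratio turned without length and GC trends (-0.0014) and ranged from -0.0381 to 0.0673 over the omissions. The Nr1h2 to Nr1h3 ratio no longer passed with a pseudocount of 5 CPM (-0.13, adjusted exact p = 0.0997) or without samples 4301 to 4307 (-0.22, 0.10). The cause of these shifts was not tested. Other scalings moved the median of all genes from -0.0041 to between -0.014 and 0.0038. No paired analysis was possible because the groups share no sample number in the labels.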
